A study of Homo sapiens with 27 samples.

Results

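The genes described here encode the ephrins, the semaphorins and the slits, together with their receptors, the Eph kinases, plexins, neuropilins and robos. They were taken by symbol from the deposited count tables (EFNA, EFNB, EPHA, EPHB, PLXNA and PLXNB with a number, SEMA with a number and a letter, PLXNC1, PLXND1, NRP1, NRP2, SLIT1 to SLIT3 and ROBO1 to ROBO4, without antisense transcripts), which gave 60 genes of 55882 symbols. They comprise 5 ephrin-A and 3 ephrin-B ligands, 9 EphA and 5 EphB receptors, 7 secreted class 3 semaphorins, 13 membrane semaphorins, 9 plexins, 2 neuropilins, 3 slits and 4 robos. Poly(A) RNA was sequenced from U2OS cells, a human osteosarcoma line, stably transduced with a blank pLKO.1 vector (control) or with 1 of 2 pLKO.1 short hairpin RNAs against MMP2, the gene of matrix metalloproteinase 2 (MMP2sh1 and MMP2sh2). All 3 lines therefore carry the vector, and each is a single stable line, so that a difference between lines cannot be told apart from a difference between the transduced populations. Cells were plated at low density, and RNA was collected when they were subconfluent (day −2), confluent (day 0) or overconfluent (day +2), from 3 replicates of each line and day, 27 libraries in 9 groups. The study asked how expression changes as cells expand and on depletion of MMP-2, and the comparisons below follow both questions for the guidance genes.

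Guidance cues are signals between neighbouring cells and were named for steering growing axons. Ephrins are held on the cell surface, the A class by a lipid anchor and the B class by a transmembrane segment, and bind Eph receptor tyrosine kinases on the facing cell, so that signalling needs contact and can run into both cells. Class 3 semaphorins are secreted and act through neuropilins that pair with plexins, whereas most other semaphorins are themselves membrane proteins that bind plexins directly. Slits are secreted ligands of robo receptors. In bone, ephrin and semaphorin signals pass between osteoblasts and osteoclasts, and several of these genes are also known in tumour cell migration and in blood vessels.

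MMP2, the targeted gene (chr16:55423612-55540603 of hg19), was read first as a check of the labels. It was at 222, 226.2 and 248 CPM (counts scaled to a common library size with TMM factors) in the 3 control libraries of day −2, at 33.97, 39.5 and 46.8 CPM in MMP2sh1 and at 136, 139.8 and 155 CPM in MMP2sh2. At day 0 it was at 318, 324 and 332 CPM in control, at 53.6, 57.4 and 66.3 CPM in MMP2sh1 and at 154, 159 and 159.9 CPM in MMP2sh2. At day +2 the same lines held 496, 479.9 and 492 CPM, 97.3, 93.7 and 100.01 CPM and 278, 291 and 266 CPM. Every hairpin library lay below every control library of its day, and every MMP2sh1 library lay below every MMP2sh2 library. The hairpin lines thus differ in depth of depletion (log2 fold change of MMP2sh1 relative to MMP2sh2 −1.84 at day −2, −1.41 at day 0 and −1.52 at day +2). Libraries held 33580129 to 59374327 counts on genes (median 40075178). Of 8 mesenchymal and osteoblast markers, 6 were detected in every group (at least 1 CPM in all 3 libraries), while COL1A2 and TWIST1 were near 0. Summed over the 8, their level was 3756 to 4717 CPM per library at day −2 and 6214 to 8104 CPM at day +2, when MMP2sh1 (7747 to 8104 CPM) lay above control (6311 to 7115 CPM). FN1 had the widest range over all libraries (14573 to 146655 counts), against 42272 to 86673 for SPARC and 37942 to 71754 for COL1A1. The summed level of 7 neuron markers was 112 to 122.9 CPM at day −2 and 41.5 to 49.6 CPM at day +2. Among these, NEFL had the widest range (767 to 5697 counts), followed by RBFOX3 (82 to 1014). In control, 4 of the 7 were detected at day −2 and 5 at day +2. The summed level of 6 epithelial markers was higher in MMP2sh1 than in control on every day, at 51.7 to 59.1 against 42.4 to 45.3 CPM at day −2, 46.8 to 48.1 against 36.3 to 38.98 CPM at day 0 and 60.7 to 70.3 against 39.1 to 42.7 CPM at day +2. CLDN4 had the most counts of these in every library (810 to 2210), above KRT14 (at most 489), EPCAM (315), CDH1 (97), KRT5 (53) and ESRP1 (22). At day −2, 2 of the 6 were detected in MMP2sh1 and 3 in control, so the sum does not describe the list gene by gene. Mitochondrial transcripts held 4.16% to 6.55% of the counts of a library at day −2 and 5.49% to 7.15% at day +2. Leukocyte and oligodendrocyte markers summed to at most 2.22 CPM, and 5 endothelial markers to at most 9.33 CPM. Their part in the results was not tested, and in bulk RNA fewer cells expressing a gene and less RNA per cell cannot be told apart.

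Promoter windows are shown for 4 genes on which the results below turn. PLXNA4 multiplied through the expansion of every line, and SEMA7A fell in every line and stayed above control in both hairpin lines. SEMA3E was below control in both hairpin lines at every day, and EFNA2 below control at every day in MMP2sh1. Each window is the 250 bases before the annotated start in the RefSeq promoter table on GRCh38.p14, written 5′ to 3′ on the strand of the gene, with the motifs found in capitals. The windows are chr7:132576471-132576720 (PLXNA4, minus strand), chr15:74433959-74434208 (SEMA7A, minus strand), chr7:83649140-83649389 (SEMA3E, minus strand) and chr19:1285623-1285872 (EFNA2, plus strand).

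PLXNA4: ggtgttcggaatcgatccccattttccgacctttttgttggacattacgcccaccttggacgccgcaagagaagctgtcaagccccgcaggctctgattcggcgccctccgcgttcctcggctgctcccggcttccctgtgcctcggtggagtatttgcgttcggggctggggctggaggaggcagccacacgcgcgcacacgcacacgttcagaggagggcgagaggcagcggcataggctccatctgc
SEMA7A: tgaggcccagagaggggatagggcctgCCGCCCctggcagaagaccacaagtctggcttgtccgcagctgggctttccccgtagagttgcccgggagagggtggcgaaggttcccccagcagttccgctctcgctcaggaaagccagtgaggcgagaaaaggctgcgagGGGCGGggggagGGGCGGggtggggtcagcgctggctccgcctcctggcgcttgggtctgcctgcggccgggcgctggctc
SEMA3E: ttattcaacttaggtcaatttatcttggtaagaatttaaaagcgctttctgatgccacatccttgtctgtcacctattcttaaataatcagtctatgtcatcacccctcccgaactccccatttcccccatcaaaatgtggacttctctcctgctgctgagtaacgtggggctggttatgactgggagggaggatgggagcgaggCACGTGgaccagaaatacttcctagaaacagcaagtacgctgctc
EFNA2: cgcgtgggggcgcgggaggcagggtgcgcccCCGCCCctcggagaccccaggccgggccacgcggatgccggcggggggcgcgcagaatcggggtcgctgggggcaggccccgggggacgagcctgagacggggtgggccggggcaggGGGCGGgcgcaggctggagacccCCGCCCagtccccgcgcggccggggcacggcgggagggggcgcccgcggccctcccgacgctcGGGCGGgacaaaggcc

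Both strands were searched for 5 motifs, the GC box (GGGCGG), the E-box (CACGTG), the AP-1 site (TGANTCA), the TEAD site (GGAATG) and the cyclic AMP response element (TGACGTCA), each counted separately, so that matches of different motifs may share bases. The SEMA7A window held 3 GC boxes and the EFNA2 window 4, the SEMA3E window held 1 E-box, and the PLXNA4 window held none of the 5. Their GC content was 63.6% for PLXNA4, 70% for SEMA7A, 46.4% for SEMA3E and 84% for EFNA2. Of the 60 guidance genes, 54 have an entry in the table, and a GC box was found in 41 of these windows (75.9%) against 42.6% of all 35116 windows of the table. An E-box was found in 4 (6.34% of all windows), an AP-1 site in 1 (6.57%), a TEAD site in 3 (11.9%) and a cyclic AMP response element in 2 (1.65%). The guidance genes count 1 window each and are all protein-coding. All windows were taken without either limit, so these shares are not of like sets. EPHA10, EFNB3, SEMA6B, SEMA3A, SEMA6A and NRP1 have no entry. A match describes these letters in this window and is not a binding site.

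Most guidance genes were expressed in these cells. In all 9 groups, 46 of the 60 were detected at 1 CPM or more in every library, 5 were detected in some groups (EPHA3, EPHA8, SEMA3D, SEMA5A and ROBO4) and 9 in none (EFNB2, EPHA1, EPHA7, SEMA4A, SEMA5B, SEMA6D, NRP2, SLIT1 and ROBO2). Levels of different genes are compared per kb of exon, here in control cells at day −2 (mean ± SD, n = 3). The highest was PLXNB2, a plexin-B receptor (chr22:50713408-50746075), at 63.8 ± 2.40 CPM per kb, followed by the transmembrane semaphorin SEMA6B (chr19:4542605-4581788) at 35.5 ± 2.99. Of the receptor kinases, EPHA2 (chr1:16450832-16482564) stood at 27.8 ± 0.806 CPM per kb and was the highest EphA gene, and EPHB4 (chr7:100400187-100425145) at 20.3 ± 0.456 was the highest EphB gene. PLXNA1, at 25.9 ± 0.570 CPM per kb, and SEMA7A, at 24.2 ± 1.34, lay close to EPHA2, and the order of these 3 depends on the length used: per kb of the longest transcript PLXNA1 was at 31.3, EPHA2 at 29.1 and SEMA7A at 27.3. SEMA3F (chr3:50192478-50226508) led the secreted semaphorins at 16.7 ± 1.28, EFNA4 (chr1:155036213-155042029) the ephrin-A ligands at 11.4 ± 0.490 and EFNB3 (chr17:7608520-7614690) the ephrin-B ligands at 9.50 ± 1.42. NRP1 (chr10:33466420-33625190), at 7.62 ± 0.274 CPM per kb, was the 1 neuropilin detected in any group (14.9 per kb of its longest transcript), and ROBO1 (chr3:78646389-79817148) led the robos at 6.25 ± 0.320. Of the slits, SLIT2 (chr4:20253528-20622184) was the highest at 1.42 ± 0.146 CPM per kb, below the leading gene of every other role group.

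**Figure D1:**
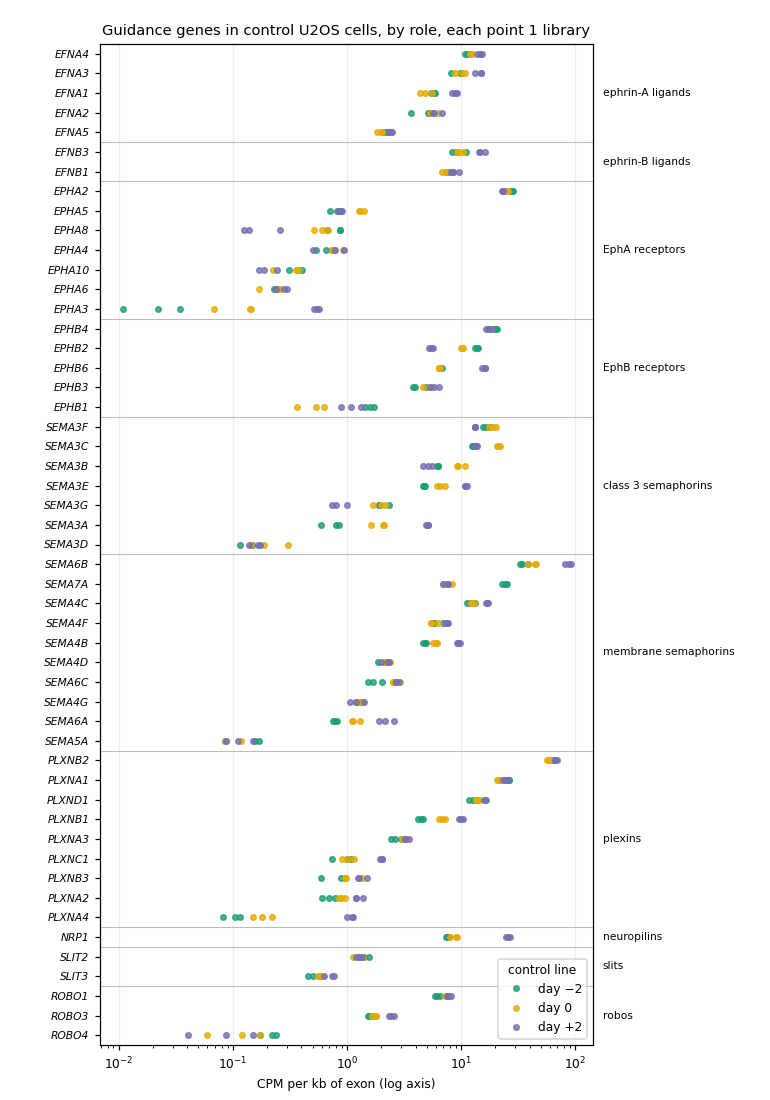
Levels of the guidance genes detected in at least 1 group, in CPM per kb of exon on a log axis, in control cells at day −2, day 0 and day +2, grouped by role, with 1 point per library. PLXNB2 has the highest points at day −2, and EPHA3, PLXNA4 and SEMA3A show the widest separation between day −2 and day +2.

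From day −2 to day +2, control cells gained transcripts of plexins, membrane semaphorins, NRP1 and ephrin-A ligands and lost those of several Eph receptors and of SEMA7A. The Eph receptors went both ways: of 8 EphA genes tested 1 rose and 3 fell, and of 5 EphB genes 2 rose and 3 fell. Of the 54 guidance genes that passed the filter on low counts in control, 38 were called, 27 higher and 11 lower at day +2, where 56.8% of all genes tested were called, 28.1% higher and 28.6% lower. Called means an adjusted p under 0.05 in the quasi-likelihood test of edgeR, adjusted by Benjamini-Hochberg over all genes tested, and every adjusted p below comes from it. A value after ± is the standard error beside a log2 fold change and the SD beside a level. The median log2 fold change of the guidance genes tested was 0.33, against 0.03 over all genes. In MMP2sh1, 41 of 55 were called, 29 higher and 12 lower, where 54.9% of all genes tested were called, 27.3% higher and 27.7% lower. In MMP2sh2, 34 of 53 were called, 23 higher and 11 lower, where 54.7% of all genes tested were called, 27.7% higher and 27.1% lower. No library is shared between the expansions of the 3 lines. Of the 53 guidance genes tested in all of them, 27 (50.9%) were called with 1 sign in every line, 20 (37.7%) higher and 7 (13.2%) lower at day +2. By the same count, 41% of all genes tested were called, 19.4% higher and 21.6% lower. The share of risers is thus above that of all genes, and the share of genes that fell is below it.

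**Figure D2:**
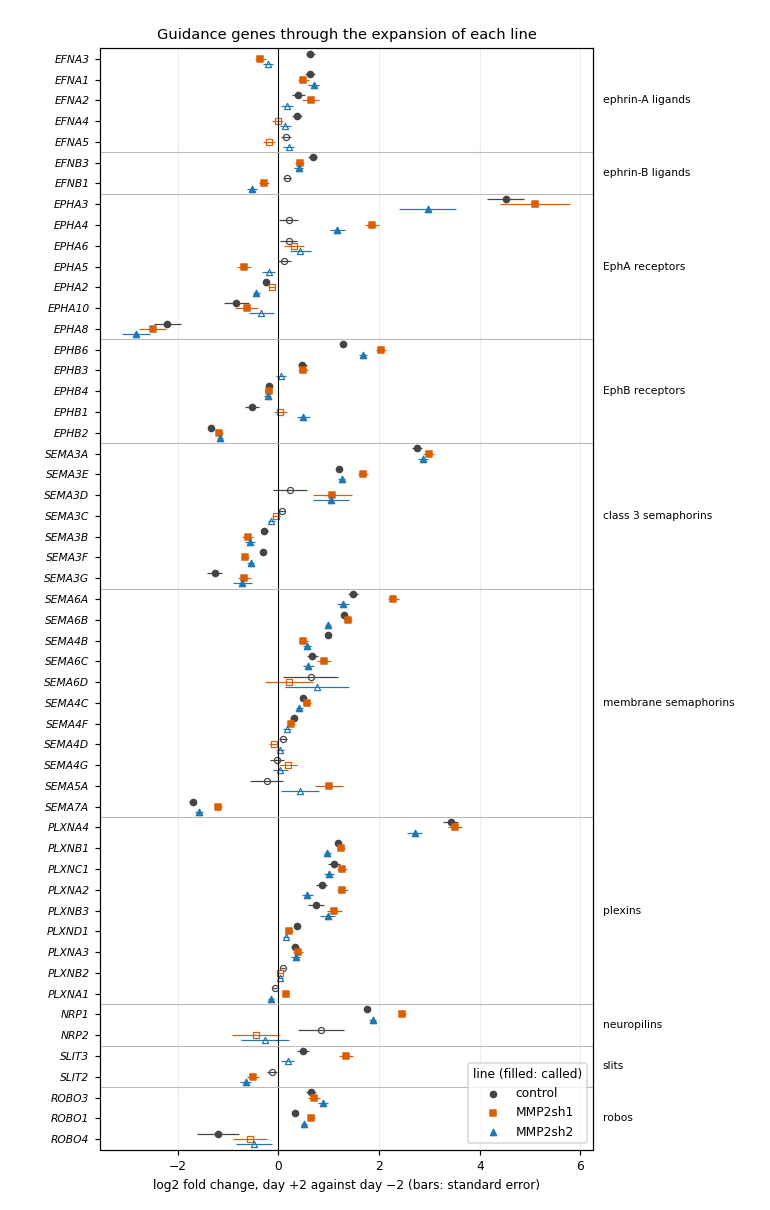
Log2 fold change from day −2 to day +2 of each guidance gene tested in all 3 lines, by role, with bars for the standard error and filled symbols for genes called in that line. Most plexins and membrane semaphorins lie to the right of 0 in all lines, and EPHA8, EPHB2 and SEMA7A lie to the left.

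Among the ligands of Eph receptors, 2 of 7 tested rose in all 3 lines, where 19.4% of all genes tested did. EFNA1, an ephrin-A ligand (chr1:155100352-155107375), changed by 0.62 in control, 0.50 in MMP2sh1 and 0.70 in MMP2sh2 on the log2 scale, with adjusted p of at most 5.0e-04. EFNB3, an ephrin-B ligand, changed by 0.68 in control, 0.42 in MMP2sh1 and 0.40 in MMP2sh2, with adjusted p of at most 5.1e-04. EFNA2, EFNA3 and EFNA4 rose in control as well (log2 fold change 0.40, 0.63 and 0.37), which makes 4 of 5 ephrin-A genes there, against 2 higher and 1 lower of 5 in MMP2sh1 and 1 higher of 5 in MMP2sh2. Of all genes tested, 28.1% rose in control, 27.3% in MMP2sh1 (where 27.7% fell) and 27.7% in MMP2sh2. The call of EFNA2 in control from day −2 to day +2 ended without any 1 of control day −2 replicate 1 and control day +2 replicate 3 (adjusted p = 0.064 to 0.11). EFNA3 shares 43.9% of its exon length with the readthrough gene EFNA4-EFNA3 and EFNA4 15% of its own, so reads of these genes could be discarded or split in counting. EFNA5 was not called in any line.

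Of the EphA receptors, EPHA3 and EPHA8 moved furthest, in opposite directions, and from low levels. EPHA3, a receptor of ephrin-A5 (chr3:89156771-89531284), was at 0.225, 0.0710 and 0.146 CPM in control libraries of day −2 and at 3.72, 3.38 and 3.58 CPM at day +2. In MMP2sh1 it went from 0, 0.129 and 0 CPM to 2.07, 1.25 and 1.87 CPM, and in MMP2sh2 from 0.241, 0.142 and 0.0566 to 1.21, 1.18 and 1.16 CPM. All day +2 libraries of a line lay above all of its day −2 libraries, and control held the highest day +2 level. The log2 fold changes were 4.51 ± 0.37 in control, 5.10 ± 0.70 in MMP2sh1 and 2.97 ± 0.57 in MMP2sh2, with adjusted p of at most 4.3e-05. No read of EPHA3 was counted in 2 of the 3 MMP2sh1 libraries of day −2, so its fold there rests on a handful of reads and depends on the prior count: with single libraries left out it ran from 4.55 to 9.09, the latter without MMP2sh1 day −2 replicate 2. EPHA8, another ephrin-A receptor (chr1:22889982-22930088), fell from 4.72, 3.65 and 4.77 CPM to 1.42, 0.687 and 0.750 CPM in control, from 4.68, 4.79 and 6.34 to 1.09, 1.13 and 0.599 in MMP2sh1 and from 4.84, 4.33 and 6.15 to 0.846, 0.400 and 0.897 in MMP2sh2. Day −2 and day +2 did not overlap in any line, and the log2 fold changes were −2.21 ± 0.27 in control, −2.50 ± 0.27 in MMP2sh1 and −2.82 ± 0.28 in MMP2sh2 (adjusted p of at most 7.2e-08).

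Of the EphB receptors, EPHB6, which lacks kinase activity (chr7:142552823-142568847), rose from 34.7, 36.2 and 34.3 CPM to 87.1, 87.1 and 81.9 CPM in control. In MMP2sh1 it rose from 28.7, 41.1 and 41.1 CPM to 162, 153 and 145 CPM, and in MMP2sh2 from 34.01, 29.4 and 30.05 CPM to 104, 105 and 89.9 CPM. The groups did not overlap in any line, the highest libraries being those of MMP2sh1 at day +2, and the log2 fold changes were 1.29 ± 0.058 in control, 2.04 ± 0.097 in MMP2sh1 and 1.68 ± 0.077 in MMP2sh2 (adjusted p of at most 2.0e-14). EPHB2, an ephrin-B receptor (chr1:23037332-23247993) and by CPM the most counted EphB gene at day −2, fell from 167, 174 and 178 CPM to 71.2, 65.5 and 68.5 CPM in control. It fell from 177, 198 and 209 CPM to 87.6, 89.6 and 82.2 CPM in MMP2sh1 and from 182, 182 and 196 CPM to 85.7, 83.1 and 79.7 CPM in MMP2sh2. Every day +2 library lay below every day −2 library, with log2 fold changes of −1.33 ± 0.052 in control, −1.17 ± 0.068 in MMP2sh1 and −1.16 ± 0.062 in MMP2sh2 (adjusted p of at most 7.3e-13). EPHB4, the receptor of ephrin-B2, fell by a smaller step (−0.19 in control, −0.20 in MMP2sh1 and −0.21 in MMP2sh2, adjusted p of at most 0.010), while its partner gene EFNB2 was not detected in any group. EFNB2 shares 36.4% of its exon length with a gene on the opposite strand, where reads could be discarded in counting. The call of EPHB4 in MMP2sh1 from day −2 to day +2 ended without MMP2sh1 day −2 replicate 3 (adjusted p = 0.062). EPHA2 fell in control (−0.26) and MMP2sh2 (−0.44) and was at −0.13 in MMP2sh1, where it did not pass the test (adjusted p = 0.11).

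The class 3 semaphorins divided by gene. SEMA3A, the secreted ligand of NRP1 that collapses growth cones (chr7:83585093-84122040), went from 7.89, 5.47 and 7.43 CPM at day −2 to 47.5, 45.4 and 47.2 CPM at day +2 in control. In MMP2sh1 it went from 4.17, 5.52 and 4.25 CPM to 37.1, 36.4 and 37.6 CPM, and in MMP2sh2 from 6.58, 6.72 and 6.66 CPM to 47.5, 46.2 and 51.8 CPM. It was thus several times higher at day +2 in every library of every line (log2 fold change 2.75 ± 0.099 in control, 2.98 ± 0.11 in MMP2sh1 and 2.87 ± 0.093 in MMP2sh2, adjusted p of at most 3.4e-16). SEMA3E, which binds PLXND1 without a neuropilin (chr7:82992554-83278455), rose from 41.3, 39.3 and 40.2 CPM to 95.2, 91.5 and 91.7 CPM in control, from 16.4, 21.96 and 21.2 to 59.9, 69.5 and 62.8 in MMP2sh1 and from 28.8, 29.5 and 26.7 to 68.7, 66.3 and 67.2 in MMP2sh2. The control libraries were the highest on both days, and the log2 fold changes were 1.21 ± 0.056 in control, 1.68 ± 0.096 in MMP2sh1 and 1.26 ± 0.073 in MMP2sh2 (adjusted p of at most 5.2e-13). SEMA3B, SEMA3F and SEMA3G fell in all 3 lines. SEMA3G changed by −1.27 in control, −0.68 in MMP2sh1 and −0.72 in MMP2sh2, SEMA3F, a ligand of NRP2, by −0.32 in control, −0.67 in MMP2sh1 and −0.55 in MMP2sh2, and SEMA3B by −0.28 in control, −0.61 in MMP2sh1 and −0.56 in MMP2sh2, with adjusted p of at most 0.0021. SEMA3C changed by 0.073 in control, −0.045 in MMP2sh1 and −0.14 in MMP2sh2 and was not called in any line.

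Of the 11 membrane semaphorins tested, 6 rose in control, 7 in MMP2sh1 and 5 in MMP2sh2, and 1, SEMA7A, fell in each. Of all genes tested, 28.1%, 27.3% and 27.7% rose and 28.6%, 27.7% and 27.1% fell in these lines. SEMA7A, a lipid-anchored semaphorin that binds PLXNC1 and integrins (chr15:74701630-74726299), was at 92.8, 96.7 and 86.6 CPM in control at day −2 and at 26.4, 29.1 and 28.8 CPM at day +2. In MMP2sh1 it fell from 115, 115 and 111 CPM to 53.4, 49.4 and 46.3 CPM, and in MMP2sh2 from 98.03, 107 and 112 CPM to 37.03, 38.2 and 30.97 CPM. The days did not overlap in any line, and control held the lowest level on day +2 (log2 fold change −1.71 ± 0.063 in control, −1.20 ± 0.069 in MMP2sh1 and −1.57 ± 0.077 in MMP2sh2, adjusted p of at most 6.9e-13). SEMA6A, a transmembrane ligand of PLXNA2 and PLXNA4 (chr5:115779251-115910519), rose from 8.67, 8.95 and 8.30 CPM to 23.4, 20.7 and 28.1 CPM in control, from 7.44, 7.85 and 6.15 to 34.1, 32.2 and 38.1 in MMP2sh1 and from 7.92, 7.46 and 6.26 to 17.9, 15.8 and 19.03 in MMP2sh2. All day +2 libraries exceeded all day −2 libraries (log2 fold change 1.48 ± 0.11 in control, 2.28 ± 0.11 in MMP2sh1 and 1.29 ± 0.12 in MMP2sh2, adjusted p of at most 1.0e-10). SEMA6B rose from 157, 162 and 183 CPM to 389, 413 and 430.1 CPM in control, from 129.7, 145 and 168 to 398, 391 and 365 in MMP2sh1 and from 172, 184 and 194 to 367, 389 and 331 in MMP2sh2. It was the most counted membrane semaphorin on both days, and its log2 fold changes were 1.30 ± 0.055 in control, 1.38 ± 0.074 in MMP2sh1 and 0.99 ± 0.062 in MMP2sh2 (adjusted p of at most 1.7e-13). Smaller rises were called in every line for SEMA4B (0.98 in control, 0.50 in MMP2sh1 and 0.57 in MMP2sh2), SEMA4C (0.49 in control, 0.57 in MMP2sh1 and 0.42 in MMP2sh2) and SEMA6C (0.67 in control, 0.90 in MMP2sh1 and 0.59 in MMP2sh2), all transmembrane. SEMA4D, a ligand of PLXNB1, was not called in any line, with log2 fold changes of 0.084 in control, −0.092 in MMP2sh1 and 0.029 in MMP2sh2.

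Of the 9 plexins, 7 rose in control, 8 in MMP2sh1 and 6 in MMP2sh2, where 28.1%, 27.3% and 27.7% of all genes tested rose. PLXNA4, a receptor of SEMA6A and, with NRP1, of SEMA3A (chr7:131808099-132333447), went from 1.90, 1.35 and 1.70 CPM to 18.6, 18.2 and 16.6 CPM in control. In MMP2sh1 it went from 1.97, 2.78 and 2.95 CPM to 29.2, 31.1 and 28.3 CPM, and in MMP2sh2 from 1.81, 2.34 and 2.12 CPM to 14.3, 13.5 and 13.1 CPM. The day +2 libraries of the 3 lines did not overlap each other or any day −2 library, with MMP2sh1 highest and MMP2sh2 lowest (log2 fold change 3.42 ± 0.14 in control, 3.51 ± 0.13 in MMP2sh1 and 2.705 ± 0.15 in MMP2sh2, adjusted p of at most 5.8e-16). PLXNB1, the receptor of SEMA4D, rose by 1.19 in control, 1.24 in MMP2sh1 and 0.97 in MMP2sh2, PLXNC1, the receptor of SEMA7A, by 1.11 in control, 1.26 in MMP2sh1 and 1.00 in MMP2sh2, PLXNA2 by 0.86 in control, 1.27 in MMP2sh1 and 0.57 in MMP2sh2, PLXNB3 by 0.74 in control, 1.11 in MMP2sh1 and 0.98 in MMP2sh2 and PLXNA3 by 0.32 in control, 0.40 in MMP2sh1 and 0.35 in MMP2sh2 (adjusted p of at most 0.0016). PLXNB3 shares 20.4% of its exon length with SRPK3 on the same strand, where reads could be discarded in counting. The 2 most abundant plexins per kb moved little: PLXNB2 was at 0.092 in control, 0.030 in MMP2sh1 and 0.030 in MMP2sh2 and was not called, and PLXNA1 was at −0.075 in control, where it was not called, and was called higher in MMP2sh1 (0.15) and lower in MMP2sh2 (−0.15). The call of PLXNA1 in MMP2sh1 from day −2 to day +2 ended without any 1 of MMP2sh1 day −2 replicates 1 and 2 and MMP2sh1 day +2 replicates 1 and 2 (adjusted p = 0.052 to 0.17). The call of PLXNA1 in MMP2sh2 from day −2 to day +2 ended without any 1 of MMP2sh2 day −2 replicates 2 and 3 and MMP2sh2 day +2 replicate 3 (adjusted p = 0.055 to 0.18). PLXNA1 was also not called in MMP2sh2 from day −2 to day +2 with the filter of 10 counts per library and the replicate block (adjusted p = 0.056 and 0.053).

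NRP1, the shared receptor of class 3 semaphorins and of VEGF-A, was at 86.8, 85.3 and 91.4 CPM in control at day −2 and at 309.7, 285 and 299 CPM at day +2. In MMP2sh1 it rose from 54.9, 67.6 and 70.4 CPM to 348, 355 and 362 CPM and in MMP2sh2 from 69.6, 78.7 and 67.3 CPM to 265, 260.5 and 259.9 CPM. At day +2 the lines did not overlap, MMP2sh1 being highest and MMP2sh2 lowest, whereas at day −2 control was highest (log2 fold change 1.77 ± 0.050 in control, 2.46 ± 0.076 in MMP2sh1 and 1.87 ± 0.064 in MMP2sh2, adjusted p of at most 8.7e-18). Both robos called in every line rose: ROBO3 changed by 0.64 in control, 0.71 in MMP2sh1 and 0.88 in MMP2sh2 and ROBO1, the main receptor of SLIT2, by 0.33 in control, 0.66 in MMP2sh1 and 0.51 in MMP2sh2 (adjusted p of at most 1.2e-05). The slits did not share a direction: SLIT3 rose in control (0.49) and MMP2sh1 (1.34), and SLIT2 fell in MMP2sh1 (−0.51) and MMP2sh2 (−0.65) and was at −0.13 in control (adjusted p = 0.27).

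**Figure D3:**
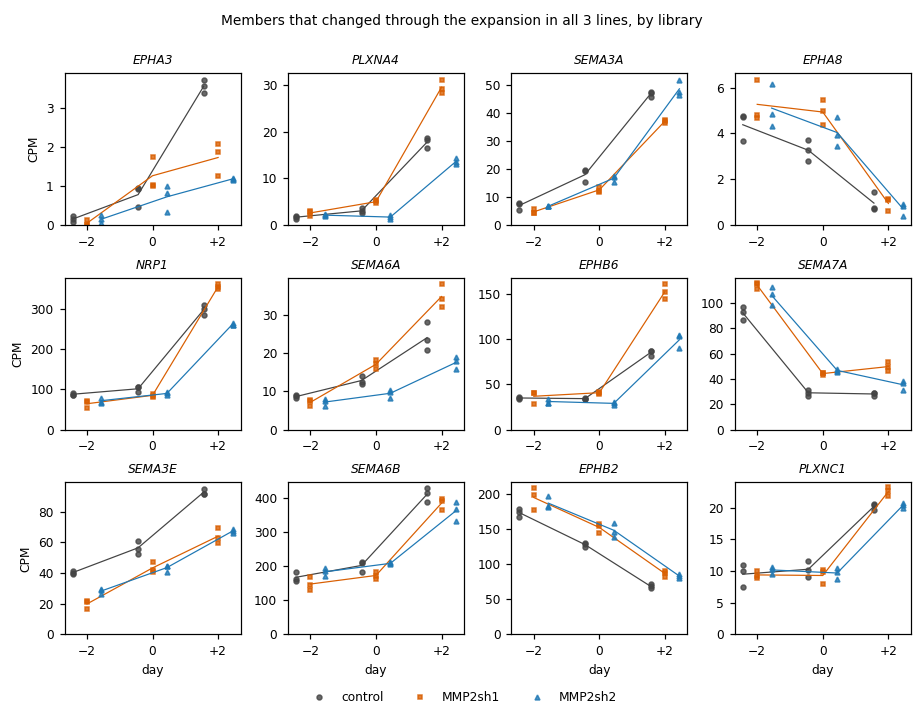
CPM of 12 guidance genes that changed with 1 sign through the expansion of all 3 lines, by day, with 1 point per library, lines through the group means and vertical axes that start at 0. EPHA8, SEMA7A and EPHB2 fall and the others rise, and in control SEMA7A falls before day 0 whereas NRP1, EPHB6 and PLXNC1 rise mostly after it.

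The 2 steps of the control expansion showed that these genes did not all move at the same time. From day −2 to day 0, 28 of 54 guidance genes were called, 21 higher and 7 lower, where 35.5% of all genes tested were called, 16.4% higher and 19.1% lower. From day 0 to day +2, 32 of 53 were called, 25 higher and 7 lower, where 41.4% of all genes tested were called, 21.3% higher and 20.1% lower. Both steps share the day 0 libraries, so a step up followed by a step down can come in part from the same 3 libraries, and the values are given side by side. SEMA7A, at 26.4, 29.2 and 31.5 CPM in the day 0 libraries, had reached its lower level by confluence: it fell by 1.66 on the log2 scale before day 0 (standard error 0.065, adjusted p = 5.0e-17), and its change after day 0 was −0.024 ± 0.078, which was not called (adjusted p = 0.84). NRP1, at 92.9, 107 and 105 CPM at day 0, moved mostly afterwards, by 0.22 ± 0.055 and then 1.58 ± 0.053. EPHB6, at 34.1, 33.9 and 34.98 CPM at day 0, was at −0.025 ± 0.066 in the first step, where it was not called (adjusted p = 0.81), and rose by 1.34 ± 0.058 in the second. PLXNC1 likewise was at 0.13 ± 0.13 (adjusted p = 0.48) and then rose by 0.99 ± 0.10. SEMA3A rose in both steps, by 1.37 ± 0.13 and 1.40 ± 0.082, as did EPHA3 (2.34 ± 0.60 and 2.22 ± 0.29), SEMA6A (0.58 ± 0.11 and 0.93 ± 0.10) and PLXNA4 (0.87 ± 0.25 and 2.58 ± 0.14). The call of PLXNA4 in control from day −2 to day 0 ended without control day 0 replicate 1 (adjusted p = 0.060).

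Some genes turned at confluence. SEMA3C, a secreted semaphorin (chr7:80371854-80551675), was at 78.1, 76.5 and 82.7 CPM at day −2, at 129.5, 135 and 125 CPM at day 0 and at 84.04, 81.2 and 83.3 CPM at day +2 in control. The day 0 libraries were all higher than those of either other day, which overlapped each other (log2 fold change 0.72 ± 0.050 to day 0 and −0.63 ± 0.051 after it, adjusted p = 8.2e-12 and 1.4e-11). SEMA3B rose by 0.66 ± 0.065 and fell by 0.91 afterwards (adjusted p = 6.0e-09 and 1.3e-11), and EPHA5, an ephrin-A receptor, was at 0.72 ± 0.11 and then at −0.59 ± 0.11 (adjusted p = 1.2e-05 and 6.1e-05). EPHB1, an ephrin-B receptor (chr3:134514102-134979309), had the opposite course: 8.36, 9.28 and 10.2 CPM at day −2, 3.12, 3.65 and 2.12 CPM at day 0 and 7.72, 5.20 and 6.31 CPM at day +2. Its day 0 libraries were the lowest, without overlap (log2 fold change −1.63 ± 0.17 and then 1.13 ± 0.20, adjusted p = 1.6e-08 and 2.3e-05).

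Relative to control of the same day, the hairpin lines had higher SEMA7A and lower SEMA3C and SEMA3E at each day, and at day +2 higher EPHA4, EPHB1, EPHB2 and EPHB6 and lower EFNA3, EFNB1, EPHA3 and SEMA4B. In MMP2sh1, 7 of 54 guidance genes were called at day −2 (1 higher, 6 lower), where 11.6% of all genes tested were called, 5.42% higher and 6.14% lower. At day 0, 25 of 55 were called in MMP2sh1 (8 higher, 17 lower), where 16.8% of all genes tested were called, 8.26% higher and 8.58% lower. At day +2, 28 of 54 were called (13 higher, 15 lower), where 14.8% of all genes tested were called, 7.68% higher and 7.11% lower. In MMP2sh2, 11 of 53 were called at day −2 (6 higher, 5 lower), where 11% of all genes tested were called, 4.71% higher and 6.33% lower. At day 0, 15 of 54 were called in MMP2sh2 (4 higher, 11 lower), where 12.9% of all genes tested were called, 7.07% higher and 5.81% lower. Its count at day +2 was 15 of 54 (5 higher, 10 lower), where 6.32% of all genes tested were called, 2.89% higher and 3.43% lower. MMP2sh1 and MMP2sh2 share the control libraries of a day, so a call in both is not 2 independent observations. Median log2 fold changes over the guidance genes ran from −0.12 (MMP2sh1, day 0) to 0.082 (MMP2sh2, day −2).

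**Figure D4:**
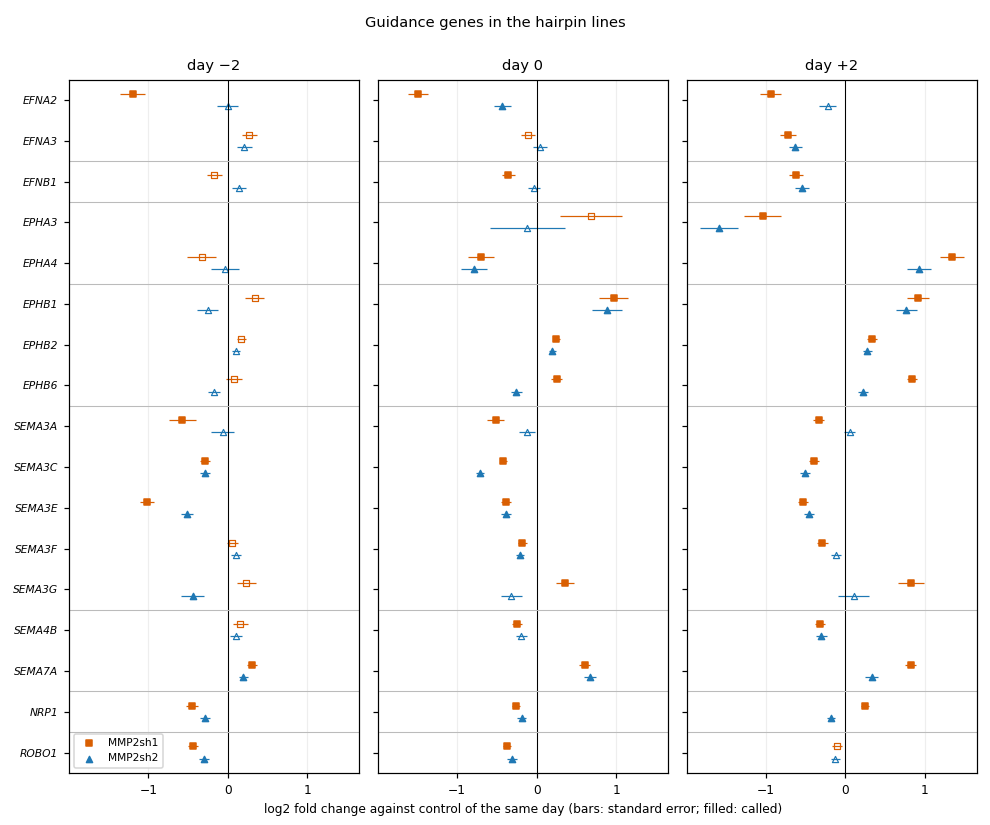
Log2 fold change of MMP2sh1 and of MMP2sh2 relative to control of the same day, for the guidance genes called with 1 sign in both hairpin lines at a day or at all 3 days in 1 comparison of lines, with bars for the standard error and filled symbols for called genes. SEMA7A lies right of 0 and SEMA3C and SEMA3E left of it in all panels, and EPHA4 lies left of 0 at day 0 and right of it at day +2 in both lines.

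Each day has its own control libraries, so calls of 1 line at different days share none. In MMP2sh1, 5 of the 53 guidance genes tested at every day were called with 1 sign at all 3, SEMA7A higher and EFNA2, SEMA3A, SEMA3C and SEMA3E lower, where 2.73% of all genes tested were called, 1.08% higher and 1.66% lower. In MMP2sh2, 4 of 52 were called, SEMA7A higher and SEMA3C, SEMA3E and NRP1 lower, where 0.602% of all genes tested were called, 0.276% higher and 0.326% lower. SEMA7A in the hairpin lines was at 44.4, 44.8 and 43.3 CPM at day 0 in MMP2sh1 and at 45.3, 46.6 and 48.2 CPM in MMP2sh2, all above the 26.4, 29.2 and 31.5 CPM of control. No hairpin library overlapped control at any day, and at day +2 MMP2sh1 was above MMP2sh2. Its log2 fold changes were in MMP2sh1 0.31, 0.60 and 0.82 at day −2, day 0 and day +2, and in MMP2sh2 0.20, 0.67 and 0.33, with adjusted p from 1.7e-09 to 0.037. The call of SEMA7A in MMP2sh2 relative to control at day −2 ended without any 1 of control day −2 replicates 1, 2 and 3 and MMP2sh2 day −2 replicates 2 and 3 (adjusted p = 0.051 to 0.17). The call of SEMA7A in MMP2sh2 relative to control at day +2 ended without any 1 of control day +2 replicate 1 and MMP2sh2 day +2 replicates 1 and 2 (adjusted p = 0.058 to 0.075).

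SEMA3E was the secreted semaphorin with the lowest level relative to control at day −2. It was at 42.3, 40.4 and 47.5 CPM at day 0 in MMP2sh1 and at 41.01, 44.9 and 44.9 CPM in MMP2sh2, against 61.1, 55.9 and 52.4 CPM in control, and its day −2 and day +2 libraries are given above. All hairpin libraries lay below the control libraries of their day. The log2 fold changes were in MMP2sh1 −1.02, −0.39 and −0.54 at day −2, day 0 and day +2, and in MMP2sh2 −0.51, −0.39 and −0.46, with adjusted p of at most 7.5e-05. SEMA3C was at 67.7, 65.6 and 61.2 CPM at day −2, 94.7, 96.2 and 102 at day 0 and 56.9, 63.1 and 68.9 at day +2 in MMP2sh1. In MMP2sh2 it was at 65.01, 68.4 and 60.8 CPM at day −2, 78.6, 74.7 and 86.6 at day 0 and 57.4, 56.7 and 60.97 at day +2. These too lay below every control library of their day, and both hairpin lines kept the maximum at day 0. The log2 fold changes of SEMA3C were in MMP2sh1 −0.29, −0.42 and −0.40 at day −2, day 0 and day +2, and in MMP2sh2 −0.29, −0.71 and −0.51, with adjusted p of at most 0.0037. SEMA3A was called lower in MMP2sh1 (−0.57, −0.52 and −0.34), and in MMP2sh2 it was at −0.065, −0.12 and 0.054 and was not called at any day. The call of SEMA3A in MMP2sh1 relative to control at day −2 ended without any 1 of control day −2 replicates 1 and 3 and MMP2sh1 day −2 replicates 1 and 3 (adjusted p = 0.071 to 0.17). SEMA3F was called lower in both lines at day 0 (−0.18 and −0.21) and in MMP2sh1 at day +2 (−0.29). The call of SEMA3F in MMP2sh1 relative to control at day 0 ended without any 1 of control day 0 replicate 3 and MMP2sh1 day 0 replicates 1 and 2 (adjusted p = 0.078 to 0.12). SEMA3F was also not called in MMP2sh1 relative to control at day 0 with all 27 libraries in 1 fit (adjusted p = 0.078). The call of SEMA3F in MMP2sh2 relative to control at day 0 ended without any 1 of control day 0 replicate 3 and MMP2sh2 day 0 replicate 1 (adjusted p = 0.061 to 0.067). SEMA3F was also not called in MMP2sh2 relative to control at day 0 with all 27 libraries in 1 fit (adjusted p = 0.052).

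EFNA2, an ephrin-A ligand (chr19:1285872-1301430), separated the hairpin lines from each other. It was at 8.88, 12.6 and 12.8 CPM in control, 5.30, 4.31 and 5.30 CPM in MMP2sh1 and 10.1, 10.9 and 13.2 CPM in MMP2sh2 at day −2. In the same order it was at 13.1, 15.3 and 13.8 CPM, 4.41, 5.81 and 4.90 CPM and 9.81, 11.4 and 10.4 CPM at day 0. At day +2 it was at 13.8, 14.2 and 16.6 CPM in control, 9.17, 6.14 and 7.95 CPM in MMP2sh1 and 12.9, 12.3 and 12.96 CPM in MMP2sh2. All MMP2sh1 libraries lay below all libraries of the other lines on the same day, and MMP2sh2 overlapped control at day −2. The log2 fold changes relative to control were in MMP2sh1 −1.20, −1.49 and −0.94 at day −2, day 0 and day +2, and in MMP2sh2 −0.0023, −0.43 and −0.22, with adjusted p = 5.2e-06, 5.3e-11 and 3.1e-06 in MMP2sh1 and 0.99, 0.0055 and 0.24 in MMP2sh2. The call of EFNA2 in MMP2sh2 relative to control at day 0 ended without control day 0 replicate 2 (adjusted p = 0.051). EFNA3, another ephrin-A ligand, was called lower in both lines at day +2 (−0.72 ± 0.097 and −0.63 ± 0.086), where it was at 25.99, 29.3 and 29.1 CPM in control, 20.04, 14.7 and 16.6 in MMP2sh1 and 17.4, 18.5 and 18.7 in MMP2sh2. EFNB1, an ephrin-B ligand (chrX:68048864-68062003), was at 28.00, 26.98 and 32.1 CPM, 17.9, 19.5 and 19.1 CPM and 19.5, 20.4 and 19.8 CPM in the same groups (−0.63 ± 0.087 and −0.55 ± 0.086). For both ligands every hairpin library of day +2 lay below every control library (adjusted p of at most 1.4e-05).

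EPHA4, a receptor that binds ephrins of both classes (chr2:222282747-222438922), changed sides between day 0 and day +2. At day 0 it was at 5.65, 7.001 and 5.82 CPM in control, 3.64, 3.25 and 4.54 CPM in MMP2sh1 and 3.58, 3.27 and 3.95 CPM in MMP2sh2. At day +2 it was at 7.09, 5.98 and 3.82 CPM in control, 14.6, 14.9 and 13.03 CPM in MMP2sh1 and 10.4, 9.62 and 11.9 CPM in MMP2sh2. The hairpin libraries were all below control at day 0 and all above it at day +2, and at day −2 the lines overlapped (5.57, 4.95 and 4.03 CPM in control, 3.79, 4.46 and 3.39 CPM in MMP2sh1 and 3.81, 5.18 and 5.30 CPM in MMP2sh2). The log2 fold changes were in MMP2sh1 −0.33, −0.70 and 1.33 at day −2, day 0 and day +2, and in MMP2sh2 −0.039, −0.79 and 0.92 (adjusted p = 0.0023 and 1.3e-07 at day 0 and day +2 in MMP2sh1, 0.0011 and 3.8e-05 in MMP2sh2). EPHA3, by contrast, was lower in both lines at day +2, with a log2 fold change of −1.04 ± 0.24 in MMP2sh1 and −1.59 ± 0.24 in MMP2sh2 (adjusted p = 0.0021 and 8.6e-06), from the levels given above. EPHA3 was not called in MMP2sh1 relative to control at day +2 with all 27 libraries in 1 fit (adjusted p = 0.084).

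Of the EphB receptors, EPHB1 was higher in both hairpin lines from day 0 onward. It was at 5.27, 6.40 and 5.85 CPM at day 0 in MMP2sh1 and at 5.65, 5.53 and 5.43 CPM in MMP2sh2, and at day +2 at 11.1, 13.9 and 11.1 CPM and 10.1, 11.3 and 11.3 CPM, above every control library of the same day. Its log2 fold changes were in MMP2sh1 0.34, 0.97 and 0.91 at day −2, day 0 and day +2, and in MMP2sh2 −0.25, 0.88 and 0.76 (adjusted p of at most 0.0014 at day 0 and day +2). EPHB2 was higher by smaller steps, 0.25 and 0.20 at day 0 and 0.34 and 0.28 at day +2 in MMP2sh1 and MMP2sh2 (adjusted p of at most 0.0049). EPHB6 was higher in both at day +2 (0.84 and 0.22), and at day 0 it was higher in MMP2sh1 (0.25) and lower in MMP2sh2 (−0.25). The call of EPHB2 in MMP2sh2 relative to control at day 0 ended without MMP2sh2 day 0 replicate 2 (adjusted p = 0.069). The call of EPHB6 in MMP2sh2 relative to control at day 0 ended without MMP2sh2 day 0 replicate 3 (adjusted p = 0.075). EPHB6 was also not called in MMP2sh2 relative to control at day 0 with all 27 libraries in 1 fit (adjusted p = 0.068). The call of EPHB6 in MMP2sh2 relative to control at day +2 ended without any 1 of control day +2 replicates 2 and 3 and MMP2sh2 day +2 replicates 1 and 2 (adjusted p = 0.075 to 0.18). EPHB6 was also not called in MMP2sh2 relative to control at day +2 with all 27 libraries in 1 fit (adjusted p = 0.10).

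NRP1 and ROBO1 were lower in both hairpin lines before overconfluence. NRP1 was at 82.1, 83.8 and 89.6 CPM in MMP2sh1 and 92.6, 85.2 and 91.96 CPM in MMP2sh2 at day 0, against 92.9, 107 and 105 CPM in control. All hairpin libraries of day −2 and day 0 lay below those of control, and at day +2 MMP2sh1 was above control and MMP2sh2 below it (log2 fold changes in MMP2sh1 −0.45, −0.26 and 0.25 at day −2, day 0 and day +2, and in MMP2sh2 −0.29, −0.19 and −0.19, adjusted p of at most 0.017). The call of NRP1 in MMP2sh2 relative to control at day 0 ended without any 1 of control day 0 replicates 2 and 3 and MMP2sh2 day 0 replicate 2 (adjusted p = 0.084 to 0.12). NRP1 was also not called in MMP2sh2 relative to control at day 0 with all 27 libraries in 1 fit (adjusted p = 0.085). The call of NRP1 in MMP2sh2 relative to control at day +2 ended without any 1 of control day +2 replicates 1 and 3 and MMP2sh2 day +2 replicates 1 and 2 (adjusted p = 0.068 to 0.087). NRP1 was also not called in MMP2sh2 relative to control at day +2 with all 27 libraries in 1 fit (adjusted p = 0.080). ROBO1 was at 65.8, 68.5 and 72.8 CPM in control, 49.9, 51.9 and 51.2 in MMP2sh1 and 54.7, 55.9 and 57.5 in MMP2sh2 at day −2. At day 0 it was at 85.4, 80.1 and 82.6 CPM in control, 62.4, 64.7 and 64.96 in MMP2sh1 and 70.4, 61.9 and 69.8 in MMP2sh2. At both days the hairpin libraries lay below all control libraries (log2 fold changes in MMP2sh1 −0.43, −0.37 and −0.10 at day −2, day 0 and day +2, and in MMP2sh2 −0.30, −0.31 and −0.13), and at day +2 it was not called in either line (adjusted p = 0.29 and 0.25). SEMA4B, a transmembrane semaphorin, was lower at day +2 in both lines (−0.32 ± 0.063 and −0.30 ± 0.068, adjusted p = 5.3e-04 and 0.0022).

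The hairpin lines, which differ in MMP2 level, were also compared with each other. At day −2, 12 of 53 guidance genes were called in MMP2sh1 relative to MMP2sh2 (2 higher, 10 lower), where 10.7% of all genes tested were called, 5.01% higher and 5.69% lower. At day 0, 17 of 55 were called (6 higher, 11 lower), where 18.5% of all genes tested were called, 8.9% higher and 9.62% lower. The day +2 libraries gave 17 of 54 (11 higher, 6 lower), where 7.86% of all genes tested were called, 4.59% higher and 3.27% lower. At all 3 days with 1 sign, 3 of 52 were called, SEMA3G higher and EFNA2 and SEMA3A lower in MMP2sh1, where 2.63% of all genes tested were called, 1.06% higher and 1.57% lower. SEMA3G was at 11.01, 12.8 and 12.6 CPM in MMP2sh1 and 7.01, 6.52 and 9.52 CPM in MMP2sh2 at day −2. At day 0 the values were 11.8, 12.8 and 13.1 CPM in MMP2sh1 and 8.92, 8.16 and 6.73 CPM in MMP2sh2, and at day +2 they were 7.90, 8.34 and 6.66 CPM in MMP2sh1 and 4.16, 6.40 and 3.30 CPM in MMP2sh2. The lines did not overlap at any day, and the differences were 0.67 ± 0.14, 0.68 ± 0.12 and 0.72 ± 0.19 on the log2 scale (adjusted p of at most 0.016). The differences of EFNA2 were −1.20, −1.06 and −0.72, and those of SEMA3A −0.52, −0.39 and −0.39 (adjusted p of at most 0.039). The call of SEMA3G in MMP2sh1 relative to MMP2sh2 at day +2 ended without any 1 of MMP2sh1 day +2 replicate 2 and MMP2sh2 day +2 replicates 1 and 3 (adjusted p = 0.083 to 0.087). The call of SEMA3A in MMP2sh1 relative to MMP2sh2 at day −2 ended without any 1 of MMP2sh1 day −2 replicates 1 and 3 and MMP2sh2 day −2 replicates 1, 2 and 3 (adjusted p = 0.086 to 0.15). PLXNA4 and SEMA6A, a receptor and its ligand, were both higher in MMP2sh1 than in MMP2sh2 at day 0 (1.59 and 0.85) and at day +2 (1.12 and 0.98), with adjusted p of at most 6.1e-07, and neither was called at day −2.

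Whether the expansion itself differed from control was tested as an interaction of line and day on the 12 libraries of days −2 and +2. In MMP2sh1, 13 of 56 guidance genes were called (8 with a higher and 5 with a lower signed log2 change than control), where 7.4% of all genes tested were called, 4.52% higher and 2.88% lower. In MMP2sh2, 9 of 56 were called (3 higher, 6 lower), where 4.98% of all genes tested were called, 2.71% higher and 2.28% lower. EPHA4 differed most in MMP2sh1, by 1.66 ± 0.25 on the log2 scale (adjusted p = 3.7e-05), and was also called in MMP2sh2 (0.96 ± 0.25, adjusted p = 0.018): it rose in both hairpin lines (1.86 and 1.17) and was at 0.21 in control. The call of EPHA4 in the MMP2sh2 interaction ended without any 1 of control day −2 replicate 1, control day +2 replicate 3, MMP2sh2 day −2 replicate 1 and MMP2sh2 day +2 replicate 3 (adjusted p = 0.051 to 0.078). EFNA3 differed in the other direction, by −0.99 ± 0.15 in MMP2sh1 and −0.84 ± 0.13 in MMP2sh2 (adjusted p = 3.2e-05 and 3.8e-05): it rose in control (0.63) and was at −0.37 and −0.21 in the hairpin lines. The call of EFNA3 in MMP2sh1 from day −2 to day +2 ended without MMP2sh1 day +2 replicate 2 (adjusted p = 0.066). SLIT3, a secreted robo ligand (chr5:168088745-168728143), was at 6.54, 7.24 and 8.13 CPM at day −2 and 10.5, 11.01 and 8.996 at day +2 in control. In MMP2sh1 it went from 6.11, 9.42 and 8.91 CPM to 18.4, 21.02 and 22.9 CPM, and in MMP2sh2 from 7.83, 7.21 and 7.93 CPM to 8.92, 7.93 and 9.06 CPM. Its day +2 libraries of MMP2sh1 stood above all others, and the interaction was 0.86 ± 0.19 in MMP2sh1 (adjusted p = 0.0045) and −0.31 ± 0.18 in MMP2sh2, where it was not called (adjusted p = 0.39). EPHB1 was called in MMP2sh2 (1.01 ± 0.20, adjusted p = 0.0010), where it rose while in control it fell (0.49 and −0.53). The remaining called genes and their values are given in the closing section.

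**Figure D5:**
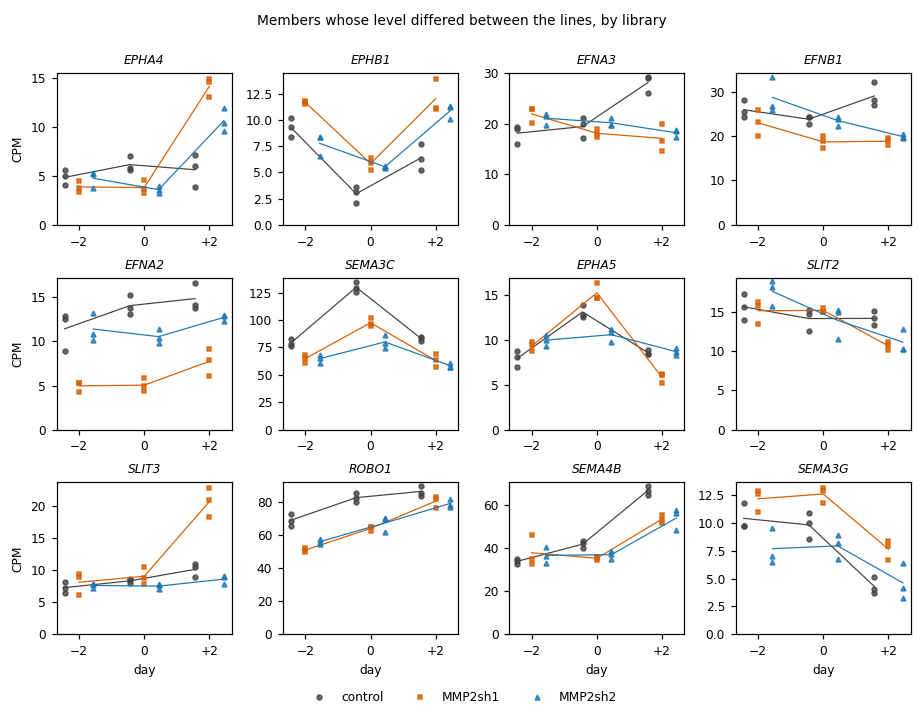
CPM of 12 guidance genes whose level differed between the lines, by day, with 1 point per library, lines through the group means and vertical axes that start at 0. EPHA4 rises after day 0 in both hairpin lines, SLIT3 most in MMP2sh1, and EFNA2 is lowest in MMP2sh1 and SEMA3C highest in control at every day.

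A list of 63 other genes of the same pathways (netrins and their receptors, repulsive guidance molecules, and signalling partners of plexins, Ephs and robos) gives the setting. In control, 45 of 59 tested were called from day −2 to day +2 (26 higher, 19 lower), in MMP2sh1 41 of 60 (25 higher, 16 lower) and in MMP2sh2 44 of 59 (23 higher, 21 lower), where 56.8%, 54.9% and 54.7% of all genes tested were called. With 1 sign in all 3 lines, 34 of 59 (57.6%) were called, 19 higher and 15 lower, against 41% of all genes tested and 20 higher and 7 lower of the 53 ligands and receptors above. Those with a log2 fold change of at least 1 in every line all rose: the netrin receptors UNC5C (2.73 in control, 3.30 in MMP2sh1 and 2.76 in MMP2sh2) and UNC5B (2.41 in control, 2.59 in MMP2sh1 and 1.75 in MMP2sh2), the secreted repellent DRAXIN (2.81 in control, 3.11 in MMP2sh1 and 2.55 in MMP2sh2), the actin-oxidising plexin effector MICAL1 (1.57 in control, 1.67 in MMP2sh1 and 1.64 in MMP2sh2) and VEGFA (1.24 in control, 1.71 in MMP2sh1 and 1.38 in MMP2sh2), which also binds NRP1. In MMP2sh1, 5 of 58 were called lower than control at all 3 days and none higher, where 1.66% of all genes tested were called lower and 2.73% in either direction. They included NTN4, a laminin-like netrin (−0.64, −0.40 and −0.64 at day −2, day 0 and day +2), and UNC5B (−0.54, −0.64 and −0.36). The others were RGMA, a neogenin ligand (−0.50, −0.71 and −0.46), GIPC1, which binds the tail of NRP1 (−0.20, −0.36 and −0.31) and PTPN13, a phosphatase of ephrin-B signalling (−0.37, −0.27 and −0.44). In MMP2sh2 the same genes were at −0.091, 0.47 and 0.12 (NTN4), 0.18, −0.44 and −0.47 (UNC5B), −0.054, −0.42 and −0.048 (RGMA), 0.14, 0.11 and 0.083 (GIPC1) and −0.38, −0.33 and −0.45 (PTPN13). There, 2 of 58 were called at all 3 days with 1 sign, PTPN13 lower and MET, a receptor kinase that associates with plexin-B1, higher (0.23, 0.52 and 0.41), where 0.602% of all genes tested were called. UNC5B was not called in MMP2sh1 relative to control at day −2 with DESeq2 (adjusted p = 0.14). The call of GIPC1 in MMP2sh1 relative to control at day −2 ended without any 1 of control day −2 replicates 1 and 2 (adjusted p = 0.067 to 0.077). The call of MET in MMP2sh2 relative to control at day −2 ended without any 1 of control day −2 replicate 1 and MMP2sh2 day −2 replicate 2 (adjusted p = 0.074 to 0.090).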

How the data were processed

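RNA-seq of poly(A) RNA was analysed from 27 U2OS libraries, grouped by line and day from the sample labels, with 3 replicates per group that the study describes as independent. Per the study's methods, the authors trimmed adapters (Trim Galore 0.6.0), aligned to hg19 (STAR 2.7.3a), removed alignments of low quality and counted exon reads per gene symbol without strand (HTSeq 2.0.0). The deposited counts are raw, and summary lines that name no gene (16.8% to 19.1% of the total) were left out.

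Each comparison was fitted on the counts of its own 6 libraries (12 for interactions) over all genes with edgeR 4.0.16 in R 4.3.3 (TMM, filterByExpr with a minimum count of 10 and total of 15, quasi-likelihood test, Benjamini-Hochberg adjustment, called at adjusted p under 0.05). Because counting was without strand and discarded reads on overlapping exons, levels of genes that overlap on either strand are uncertain. Standard errors are the log2 fold change over the square root of F. Levels are CPM with TMM factors. Positions and exon lengths are from GENCODE v44lift37 on GRCh37 (hg19).

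The members, the role groups, the partner and marker lists and the rule for named genes (called with 1 sign in all 3 lines, the 10 largest in full, at all 3 days, in both hairpin lines at a day or in an interaction, and the highest of each role group) were chosen with earlier results of these data known. Replicates differed by more than counting noise (chi-square per degree of freedom 4.58 to 22.2 over 27 pairs). Alternatives were all 27 libraries in 1 fit, a filter of 10 counts per library, no filter, DESeq2 1.42.0, median-of-ratios scaling, a replicate block, other lengths and each library left out. The fits were tested on simulated data. The replicate numbers were tested for pairing as given in the closing section. PECAM1 was not used here.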

Additional observations from a re-analysis of the deposited data

Results flagged for a closer look

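In 22 cases the change of a guidance gene from day −2 to day +2 differed between a hairpin line and control in the interaction of line and day (quasi-likelihood test of edgeR, adjusted by Benjamini-Hochberg over all genes). They were 13 of 56 tested in MMP2sh1, where 7.4% of all genes tested were called, and 9 of 56 in MMP2sh2, where 4.98% were called. Of the other genes of the same pathways, 13 of 61 were called in MMP2sh1 (21.3%) and 9 of 61 in MMP2sh2 (14.8%). Values are the log2 change in the hairpin line minus that in control, with the standard error, and both hairpin lines use the same control libraries. In MMP2sh1 the change was higher than in control for EPHA4 1.66 ± 0.25 (adjusted p = 3.7e-05), SLIT3 0.86 ± 0.19 (adjusted p = 0.0045), SEMA6A 0.81 ± 0.16 (adjusted p = 0.0012), EPHB6 0.76 ± 0.12 (adjusted p = 9.3e-05), NRP1 0.70 ± 0.091 (adjusted p = 5.9e-06), SEMA7A 0.52 ± 0.092 (adjusted p = 4.7e-04), SEMA3E 0.48 ± 0.11 (adjusted p = 0.0068) and ROBO1 0.33 ± 0.086 (adjusted p = 0.014). It was lower for EFNA3 −0.99 ± 0.15 (adjusted p = 3.2e-05), EPHA5 −0.79 ± 0.18 (adjusted p = 0.0059), SEMA4B −0.48 ± 0.12 (adjusted p = 0.013), EFNB1 −0.45 ± 0.13 (adjusted p = 0.032) and SEMA3F −0.34 ± 0.098 (adjusted p = 0.028). In MMP2sh2 it was higher for EPHB1 1.01 ± 0.20 (adjusted p = 0.0010), EPHA4 0.96 ± 0.25 (adjusted p = 0.018) and EPHB6 0.39 ± 0.097 (adjusted p = 0.013) and lower for EFNA3 −0.84 ± 0.13 (adjusted p = 3.8e-05), PLXNA4 −0.72 ± 0.20 (adjusted p = 0.033), EFNB1 −0.69 ± 0.13 (adjusted p = 7.4e-04), SLIT2 −0.52 ± 0.15 (adjusted p = 0.043), SEMA4B −0.41 ± 0.10 (adjusted p = 0.015) and SEMA6B −0.31 ± 0.086 (adjusted p = 0.025). The signs follow different courses: EPHA4, an Eph receptor for both ephrin classes, rose in the hairpin lines and not in control, EFNA3, an ephrin-A ligand, rose in control and not in the hairpin lines, EFNB1, an ephrin-B ligand, fell in both hairpin lines where in control it was at 0.17 (adjusted p = 0.079), and SEMA7A fell in all lines but less in MMP2sh1.

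The call of EFNB1 in MMP2sh1 from day −2 to day +2 ended without any 1 of MMP2sh1 day −2 replicate 2 and MMP2sh1 day +2 replicate 1 (adjusted p = 0.062 to 0.13). The call of EFNB1 in the MMP2sh1 interaction ended without any 1 of control day −2 replicates 1 and 3, control day +2 replicate 3, MMP2sh1 day −2 replicate 2 and MMP2sh1 day +2 replicates 1, 2 and 3 (adjusted p = 0.0501 to 0.13). The call of EPHA4 in the MMP2sh2 interaction ended without any 1 of control day −2 replicate 1, control day +2 replicate 3, MMP2sh2 day −2 replicate 1 and MMP2sh2 day +2 replicate 3 (adjusted p = 0.051 to 0.078). The call of SEMA3F in the MMP2sh1 interaction ended without any 1 of control day −2 replicate 2, control day +2 replicates 2 and 3, MMP2sh1 day −2 replicate 3 and MMP2sh1 day +2 replicates 2 and 3 (adjusted p = 0.052 to 0.093). The call of SEMA4B in the MMP2sh2 interaction ended without any 1 of MMP2sh2 day −2 replicate 3 and MMP2sh2 day +2 replicate 3 (adjusted p = 0.058 to 0.061). The call of SEMA6B in the MMP2sh2 interaction ended without any 1 of control day −2 replicates 1 and 2, control day +2 replicates 2 and 3, MMP2sh2 day −2 replicate 3 and MMP2sh2 day +2 replicates 1 and 3 (adjusted p = 0.056 to 0.12). The call of PLXNA4 in the MMP2sh2 interaction ended without any 1 of control day −2 replicates 2 and 3, control day +2 replicates 1, 2 and 3, MMP2sh2 day −2 replicates 2 and 3 and MMP2sh2 day +2 replicates 1, 2 and 3 (adjusted p = 0.051 to 0.12). PLXNA4 was also not called in the MMP2sh2 interaction with all 27 libraries in 1 fit (adjusted p = 0.0503). The call of SLIT2 in the MMP2sh2 interaction ended without any 1 of control day −2 replicates 1 and 3, control day +2 replicates 1, 2 and 3, MMP2sh2 day −2 replicates 2 and 3 and MMP2sh2 day +2 replicates 2 and 3 (adjusted p = 0.054 to 0.16). SLIT2 was also not called in the MMP2sh2 interaction with the replicate block (adjusted p = 0.061). The call of ROBO1 in the MMP2sh1 interaction ended without any 1 of control day −2 replicate 3 and control day +2 replicate 2 (adjusted p = 0.052 to 0.053). No explanation of these differences was tested. Beside those of MMP2sh1 stand the summed levels of 6 epithelial markers, higher than in control on every day (60.7 to 70.3 against 39.1 to 42.7 CPM at day +2), and of 8 mesenchymal and osteoblast markers (7747 to 8104 against 6311 to 7115 CPM at day +2). Such sums are weighted to their most counted genes, such as CLDN4 and FN1, and do not describe each list gene by gene.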

How the results depend on the processing

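Of 342 calls of guidance genes in 16 comparisons, 256 held under 6 alternatives and with every single library left out, 4 more (EPHA3 from day −2) held in every fit that gave them a value and did not pass the filter of 10 counts per library, 35 were lost under at least 1 alternative and 81 with at least 1 library left out, and no sign reversed. All 27 libraries in 1 fit lost 30 calls, testing without a filter 8, DESeq2 7, a filter of 10 counts per library 3 and median-of-ratios scaling 2. By the correlation of deviations (−0.025 to 0.036), no pairing of the samples by replicate number was seen. A fit with the replicate block lost 7 calls and moved the count of MMP2sh1 relative to control at day −2 from 7 to 11. Over all genes, the block moved the calls of MMP2sh1 relative to MMP2sh2 at day −2 from 2009 to 2974. It moved those of MMP2sh1 relative to control at day +2 from 2854 to 2126. The other counts of guidance genes stayed within 1.5 times under these alternatives. No scaling moved the median of all genes by more than 0.1.

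With single libraries left out, the counts ran from 36 to 39, 22 to 26 and 31 to 33 in control (day −2 to +2, day −2 to 0 and day 0 to +2), 38 to 41 and 33 to 36 through the expansion of MMP2sh1 and MMP2sh2, and 26 to 29 in all 3 lines. They ran from 11 to 17 and 4 to 9 in the MMP2sh1 and MMP2sh2 interactions, from 6 to 9, 19 to 25 and 24 to 29 in MMP2sh1 relative to control at day −2, 0 and +2, from 5 to 8, 11 to 13 and 11 to 17 in MMP2sh2, and from 7 to 12, 14 to 18 and 11 to 17 between the hairpin lines. At all 3 days they ran from 4 to 6 in MMP2sh1, 2 to 5 in MMP2sh2 and 2 to 3 between them. Counts moved by over 1.5 times in the MMP2sh2 interaction, from 9 to 5 without control day +2 replicate 3 or MMP2sh2 day −2 replicate 3 and to 4 without MMP2sh2 day +2 replicate 3. In MMP2sh2 relative to control at day −2 the count went from 11 to 5 without control replicate 1, to 6 without control replicate 2 or MMP2sh2 replicate 3 and to 7 without MMP2sh2 replicate 2. Between the hairpin lines it went from 12 to 7 at day −2 without MMP2sh1 replicate 1 and from 17 to 11 at day +2 without MMP2sh1 replicate 2. At all 3 days in MMP2sh2 it went from 4 to 2 without control replicate 1 or MMP2sh2 replicate 1 or 2 of day +2.

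Per kb of the longest transcript in place of all exons, control levels at day −2 were 72.4 for PLXNB2, 41.6 for SEMA6B, 29.1 for EPHA2, 25.8 for EPHB4, 22.3 for SEMA3F, 14.9 for NRP1, 9.21 for ROBO1 and 1.95 for SLIT2, and without TMM factors 26.9 for EPHA2 and 19.7 for EPHB4. The shift with the longest transcript follows from its shorter length, and the cause of the other changes was not tested. Depth limits genes of few reads, such as EPHA3. Counts of overlapping genes, such as EFNA3 and PLXNB3, are uncertain.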

Other observations

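Further calls of guidance genes separated single lines from control or, for ROBO4, the days of the control line. EPHA2, the most abundant Eph receptor per kb, was higher in MMP2sh2 than in control at day −2 (0.32 ± 0.058 on the log2 scale, standard error, adjusted p = 0.0010) and at day 0 (0.27 ± 0.048, adjusted p = 1.3e-04), at 132, 146 and 153 CPM against 111, 116 and 118 CPM at day −2, while in MMP2sh1 it was at −0.044 and −0.029 and was not called. The test is again that of edgeR, adjusted over all genes. PLXNA2 was lower at day 0 and higher at day +2 in MMP2sh1 (−0.30 and 0.41, adjusted p = 0.046 and 0.0014), and in MMP2sh2 it was at 0.080 and 0.13 on these days and was not called. SEMA5A, a transmembrane semaphorin, was at 2.30, 2.94 and 3.62 CPM in MMP2sh1 at day +2 against 1.84, 1.08 and 1.35 CPM in control and 1.19, 1.27 and 1.68 CPM in MMP2sh2, without overlap (1.05 ± 0.27 relative to control, adjusted p = 0.0064). ROBO4, known from endothelium, fell in control through the expansion (−1.20 ± 0.42, adjusted p = 0.017) at levels of 1.47, 1.59 and 1.14 CPM at day −2 and 0.993, 0.270 and 0.580 CPM at day +2. It shares 11.2% and 6.77% of its exon length with genes on the opposite strand, where reads could be discarded in counting. The call of PLXNA2 in MMP2sh1 relative to control at day 0 ended without any 1 of control day 0 replicates 1, 2 and 3 and MMP2sh1 day 0 replicates 1, 2 and 3 (adjusted p = 0.054 to 0.18). PLXNA2 was also not called in MMP2sh1 relative to control at day 0 with DESeq2 and no filter on low counts (adjusted p = 0.062 and 0.091). The call of SEMA5A in MMP2sh1 relative to control at day +2 ended without MMP2sh1 day +2 replicate 3 (adjusted p = 0.062). The call of ROBO4 in control from day −2 to day +2 ended without any 1 of control day −2 replicates 1 and 2 and control day +2 replicate 2 (adjusted p = 0.052 to 0.098).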
